A study of Mus musculus with 8 samples.

Results

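The parathyroid hormone–related protein (PTHrP) axis and the markers of the growth plate resting zone were followed through 10 genes in sorted mCherry+CD73+ cells. The paper uses this gate for epiphyseal skeletal stem cells (epSSCs), and the libraries also held markers of other cell types. The genes were the ligand *Pthlh*, its receptor *Pth1r*, and the resting zone genes *Nt5e*, *Sfrp5*, *Foxa2*, *Clu*, *Ucma*, *Apoe*, *Cd200* and *Spon1*. They were chosen by name, with earlier results of these data known. All 10 were among the 16536 genes of the count table. Total RNA had been sequenced from mCherry+CD73+ cells of 8 Pthrp-mCherry mice, in which mCherry reports transcription of *Pthlh*. Each library came from 1 mouse. The 4 SAG-treated mice received SAG, an agonist of the Hh signal transducer Smoothened, by daily i.p. injection from P30 to P36, and the 4 DMSO-treated mice received its vehicle over the same days, although the methods place the injections 1 day later. All animals carried the reporter and were sacrificed at P38. According to the methods, both sexes were used, sex was not considered, and viable cells were gated on mCherry and CD73, with no other marker named. The labels give the tissue as metaphyseal growth plate and name no strain. *Pthlh* drives the reporter and *Nt5e* encodes CD73, so the sort acted on the products of both genes, and their levels describe cells that had already been selected for them.

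PTHrP is secreted by chondrocytes at the top of the growth plate. It acts through the G protein–coupled receptor PTH1R, which raises cAMP through Gs and also signals through Gq, and it delays hypertrophy. Indian hedgehog (Ihh) from prehypertrophic chondrocytes maintains *Pthlh* expression, and PTHrP in turn limits the number of cells that make Ihh. The resting zone above the columns of dividing chondrocytes holds slowly cycling cells, some of which express *Pthlh* and act as skeletal stem cells.

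The libraries held between 24971992 and 46593090 counts on genes, and 3 counts corresponded to between 0.067 and 0.114 CPM (counts of a gene relative to the TMM-scaled library size). This floor covers only the error of counting. DMSO replicate 4 had the lowest total and stood apart from the other DMSO-treated mice, with Spearman's rho across genes between 0.834 and 0.868 against them and between 0.926 and 0.938 among the other DMSO-treated mice. The 15 chondrocyte marker genes were detected in all libraries, but their summed level was lowest in DMSO replicate 4 among the controls (50407 CPM, against up to 119195 CPM) and ranged from 20701 to 57575 CPM in the SAG-treated mice. All 15 had log2 fold changes below 0 (median -0.99). In edgeR 0 of them passed the test, with 14 at an unadjusted p under 0.05, whereas DESeq2 called 6, limma voom 12, and edgeR without DMSO replicate 4 called 10. The leading gene was *Col2a1*, the collagen of cartilage (log2 fold change -1.02). Markers of another cell type moved the other way. Of 12 neutrophil genes 10 were higher, among them the most abundant, *S100a9* (log2 fold change 2.00). The count was 3 without DMSO replicate 3, 6 without DMSO replicate 2 or SAG replicate 4, at least 7 without any other mouse, and 0 with scaling by the chondrocyte genes. On that scaling 1 gene in all was called higher and 0 lower. The neutrophil median log2 fold change was then 2.92, which is 1.94 above that of all genes. In the SAG-treated mice the 12 genes had summed levels of 28077 to 44814 CPM against 5212 to 14759 CPM, and the highest control was again DMSO replicate 4. Of 7 B lineage genes tested 3 were lower, between 1 and 4 on leaving out 1 mouse (1 without DMSO replicate 3 or SAG replicate 2, 3 or 4, and 2 without DMSO replicate 2 or SAG replicate 1) and 0 with the chondrocyte scaling. On that scaling all 7 fold changes were still below 0 (median -2.38 on the log2 scale). The summed level of all 8 listed B lineage genes was 16.1 to 32.8 CPM against 71.6 to 313 CPM. No listed marker was at 0 in every library. The part of these shifts in the results on the 10 genes was not tested, and in bulk RNA a smaller share of one cell type cannot be told apart from less of its RNA per cell.

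None of the 10 genes passed the threshold in the comparison of SAG with DMSO (quasi-likelihood test of edgeR with Benjamini-Hochberg adjustment over all genes, threshold 0.05), where 2.89% of the 15421 genes tested did so, 2.62% as higher and 0.266% as lower. At an unadjusted p under 0.05, 4 of the 10 were lower (*Pth1r*, *Nt5e*, *Sfrp5* and *Spon1*) and 0 were higher, where the shares of all genes were 6.5% lower and 9.58% higher. With scaling by 15 chondrocyte genes these counts were 0 lower and 2 higher, against 38 lower and 4075 higher of the 15421 genes. Fold changes were above 0 for 4 genes and below 0 for 6, with a median of -0.53 on the log2 scale against -0.08 over all genes. In 1 gene, *Nt5e*, the groups did not overlap and the SAG-treated mice were the lower ones, as in 3.84% of all genes. Separation with the SAG-treated mice above occurred in 0 of the 10, against 7.9% of all genes. Other methods called 3 of the genes lower, namely *Pth1r*, *Sfrp5* and *Spon1*. This held with DESeq2's Wald test (3.35% of its genes were lower), with limma voom and sample quality weights (2.52%), and with edgeR after DMSO replicate 4 was left out (2.17%). Without SAG replicate 1, edgeR called *Sfrp5* alone (0.222% lower).

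**Figure D1:**
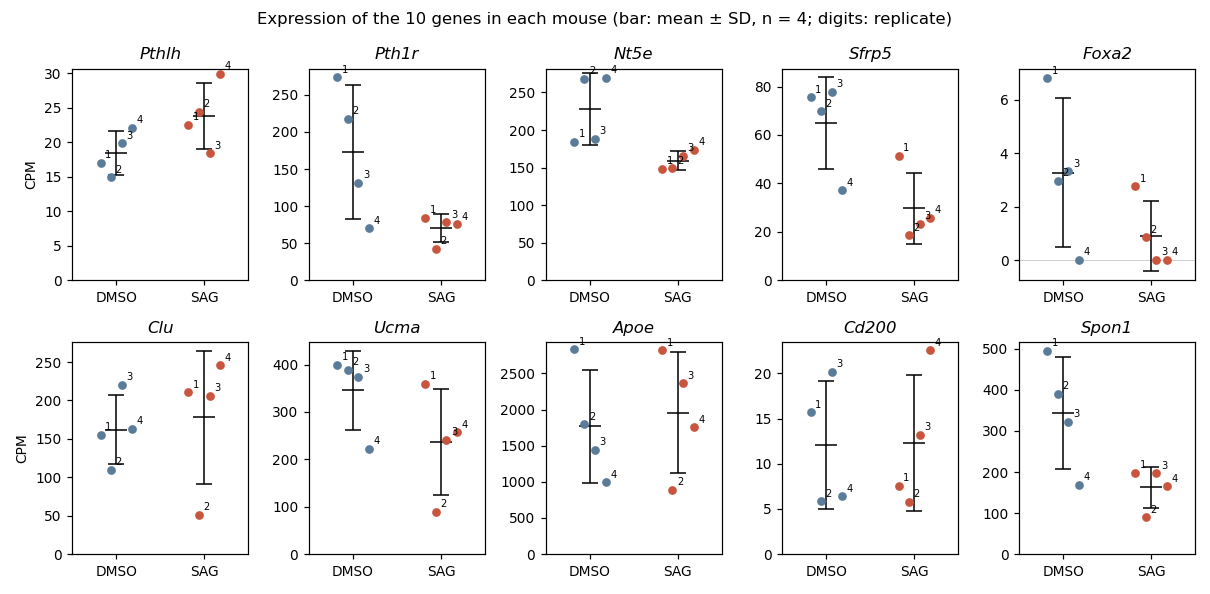
Expression of the 10 genes in CPM (y axes, linear, including 0, each panel with its own range) in 4 DMSO-treated and 4 SAG-treated mice, with points for single mice, digits for the replicate number, and bars for the mean ± SD. *Nt5e* is the panel in which the groups do not overlap, whereas in *Pth1r* and *Spon1* DMSO replicate 4 falls within the range of the SAG-treated mice.

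*Pthlh* (chr6:147252101-147264183, minus strand, GRCm38) encodes the ligand. Its level was 17.0, 14.9, 19.8 and 22.1 CPM in DMSO replicates 1 to 4 and 22.5, 24.4, 18.4 and 29.9 CPM in SAG replicates 1 to 4. The highest values were in SAG replicates 4 and 2, but SAG replicate 3 lay below 2 of the control mice. These values rest on 582 to 1311 counts per library, so counting error was small beside the spread between mice. The log2 fold change of 0.37 (SE 0.28) did not pass the test (edgeR, adjusted p = 0.606), and it stayed between 0.24 and 0.49 when any 1 mouse was left out. The paper reports the other direction, a slight decrease with SAG once *Pthlh* was normalized to GAPDH, from a t test not corrected for multiple comparisons. That normalization was not repeated here.

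*Pth1r* (chr9:110722085-110747145, minus strand) encodes the receptor through which both PTHrP and parathyroid hormone act. Expression was 274, 218, 131 and 69.9 CPM in DMSO replicates 1 to 4 and 84.0, 42.1, 78.4 and 75.3 CPM in SAG replicates 1 to 4. DMSO replicates 1 to 3 were above all SAG-treated mice, and DMSO replicate 4 was below 3 of them. The means were 173 ± 90.4 and 69.9 ± 18.9 CPM (SD, n = 4), a log2 fold change of -1.31 (SE 0.38) with an adjusted p of 0.0928 in edgeR. The adjusted p was 0.0111 with DESeq2 and 0.0111 with limma voom. Without DMSO replicate 4 the log2 fold change was -1.54 (edgeR, adjusted p = 0.00617), and the highest adjusted p on leaving out 1 mouse was 0.259. Relative to the mean log2 level of the 15 chondrocyte genes in the same mouse, *Pth1r* differed by -0.11 between the groups, which overlapped. The part of the lower cartilage signal in the level of *Pth1r* was not tested.

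Receptor and ligand transcripts were also set against each other within each mouse, which needs no scaling of the library. There were 16.1, 14.6, 6.64 and 3.16 *Pth1r* counts per *Pthlh* count in DMSO replicates 1 to 4, and 3.74, 1.72, 4.26 and 2.52 in SAG replicates 1 to 4. The controls thus spanned a wider range than the SAG-treated mice, and DMSO replicate 4 lay among the latter. The ratio was 10.1 ± 6.22 in the DMSO group and 3.06 ± 1.15 in the SAG group (SD, n = 4), a log2 difference of -1.54 that did not pass the threshold (2-sided exact permutation test, p = 0.0857). With 4 mice in each group this test cannot give a p below 0.0286.

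**Figure D2:**
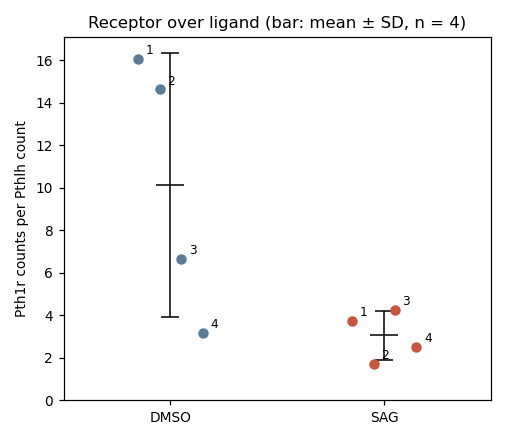
*Pth1r* counts per *Pthlh* count (y axis, linear from 0) in each mouse of the 2 groups, with digits for the replicate number and bars for the mean ± SD (n = 4). DMSO replicates 1 to 3 lie above every SAG-treated mouse, and DMSO replicate 4, at 3.16, lies among them.

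*Nt5e* (chr9:88327197-88372092, plus strand) encodes CD73, the ecto-enzyme that produces adenosine from AMP and the antigen used in the sort. Its level was 184, 268, 188 and 269.6 CPM in DMSO replicates 1 to 4 and 149, 149, 165 and 174 CPM in SAG replicates 1 to 4. All SAG-treated mice were below all controls, and they spanned a narrow range. The log2 fold change was -0.51 (SE 0.19), with an adjusted p of 0.186 in edgeR and 0.0782 in DESeq2. It was between -0.62 and -0.39 when any 1 mouse was left out. Unlike *Pth1r*, *Nt5e* was not low in DMSO replicate 4. Relative to the chondrocyte genes the sign turned, with a difference of 0.57 on the log2 scale and overlapping groups.

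*Sfrp5* (chr19:42197971-42202252, minus strand) encodes a secreted antagonist of Wnt ligands. Expression was 75.5, 69.8, 77.8 and 37.1 CPM in DMSO replicates 1 to 4 and 51.3, 18.6, 23.4 and 25.9 CPM in SAG replicates 1 to 4. The groups overlapped through DMSO replicate 4 and SAG replicate 1. The log2 fold change was -1.13 (SE 0.35, edgeR, adjusted p = 0.121). The adjusted p was 0.0284 with DESeq2 and 0.00693 with limma voom, and in edgeR it was 0.026 without DMSO replicate 4 and 0.0349 without SAG replicate 1, where the log2 fold change was -1.52. The other 6 omissions did not pass, with adjusted p-values up to 0.314 and a log2 fold change as small as -0.95. Relative to the chondrocyte genes, *Sfrp5* differed by -0.11.

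*Foxa2* (chr2:148042877-148046969, minus strand) encodes a forkhead transcription factor that is expressed in a population of the upper growth plate and, with other Foxa factors, in hypertrophic chondrocytes. DMSO replicates 1 to 4 held 292, 133, 110 and 0 counts, and SAG replicates 1 to 4 held 96, 36, 0 and 0. The gene was thus at 0 in 1 control and in 2 SAG-treated mice, and in these libraries a count of 0 allows up to 0.114, 0.0747 and 0.0684 CPM. The highest level was 6.81 CPM, in DMSO replicate 1. The fitted log2 fold change of -1.86 had an SE of 1.84 and ranged from -3.50 to -1.21 when 1 mouse was left out (edgeR, adjusted p = 0.708 over all mice). In limma voom it was -5.24 (adjusted p = 0.142).

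*Ucma* and *Spon1* encode secreted proteins of the cartilage matrix. *Ucma* (chr2:4976122-4985748, plus strand) encodes a small vitamin K–dependent protein of the upper cartilage zone. Its level was 399, 389, 374 and 222 CPM in DMSO replicates 1 to 4 and 359.5, 88.8, 241 and 257 CPM in SAG replicates 1 to 4. DMSO replicate 4 was far below the other controls and SAG replicate 2 far below the other SAG-treated mice. The log2 fold change was -0.55 (SE 0.35, edgeR, adjusted p = 0.509), and it was -0.27 without SAG replicate 2 and -0.82 without SAG replicate 1. *Spon1* (chr7:113765998-114043370, plus strand) encodes the extracellular matrix protein F-spondin. It stood at 495, 391, 323 and 169 CPM in DMSO replicates 1 to 4 and at 198, 90.2, 197 and 165 CPM in SAG replicates 1 to 4, so 3 controls were above every SAG-treated mouse. The log2 fold change was -1.08 (SE 0.33, edgeR, adjusted p = 0.111), with an adjusted p of 0.0193 in DESeq2, 0.0128 in limma voom and 0.0109 in edgeR without DMSO replicate 4. The other 7 omissions did not pass, with adjusted p-values up to 0.272. Relative to the chondrocyte genes, *Spon1* differed by 0.02 and *Ucma* by 0.39.

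*Clu* (chr14:65968483-65981547, plus strand) encodes clusterin, a secreted chaperone of surface and articular cartilage as well as of the resting zone. Its level was 155, 109.9, 220.1 and 163 CPM in DMSO replicates 1 to 4 and 210.4, 51.3, 206 and 246 CPM in SAG replicates 1 to 4. The SAG-treated mice other than replicate 2 were within or just above the upper end of the control range, and SAG replicate 2 was below all others. The log2 fold change was 0.14 (SE 0.39, edgeR, adjusted p = 0.915). *Apoe* (chr7:19696109-19699188, minus strand) encodes apolipoprotein E, a lipid carrier that macrophages make as well. It stood at 2829.8, 1798, 1442 and 993 CPM in DMSO replicates 1 to 4 and at 2818, 889, 2365 and 1756 CPM in SAG replicates 1 to 4. The ranges nearly coincided, and the log2 fold change was 0.15 (SE 0.37, edgeR, adjusted p = 0.902). Of 9 macrophage genes 0 passed the test in edgeR or DESeq2 and 0 had an unadjusted p under 0.05, and their summed level ranged from 391 to 731 CPM in the controls and from 444 to 729.6 CPM in the SAG-treated mice. With scaling by the chondrocyte genes 0 passed and 5 were higher at an unadjusted p under 0.05, against 4075 of all 15421 genes.

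*Cd200* (chr16:45382135-45409053, minus strand) encodes a membrane glycoprotein used to gate skeletal stem cells. Its level was 15.7, 5.85, 20.2 and 6.42 CPM in DMSO replicates 1 to 4 and 7.59, 5.80, 13.2 and 22.5 CPM in SAG replicates 1 to 4. Both groups held low and high mice, and the log2 fold change of 0.03 (SE 0.55, edgeR, adjusted p = 0.989) had the largest error of the 10 genes after *Foxa2*.

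Scaling by the cartilage genes gave a different picture of the same counts. When the 15 chondrocyte genes set the library sizes in place of all genes, the median log2 fold change of all genes moved to 0.98. *Pthlh* then had a log2 fold change of 1.33 (SE 0.58), which is 0.35 above that median, and *Apoe* 1.14 (SE 0.50), which is 0.16 above it. *Pth1r* was at -0.18, *Sfrp5* at -0.11 and *Spon1* at -0.03, each more than 1 below the median of all genes. None of the 10 passed the test on this scale (edgeR, lowest adjusted p = 0.162, for *Pthlh*), where 1 of all 15421 genes did. At an unadjusted p under 0.05, 2 were higher, *Pthlh* and *Apoe*, and 0 were lower, so the direction of that count turned. Of all 15421 genes 4075 were higher and 38 lower on this scale, so the turn was not particular to the 10 genes. *Apoe* was the 1 gene of the 10 for which every SAG-treated mouse lay above every control relative to the mean log2 level of the chondrocyte genes, from 0.80 to 1.53 against -0.21 to 0.40. The other 9 overlapped. The share of all genes that separate on this scale was not computed, and the median of all genes moved up as well.

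**Figure D3:**
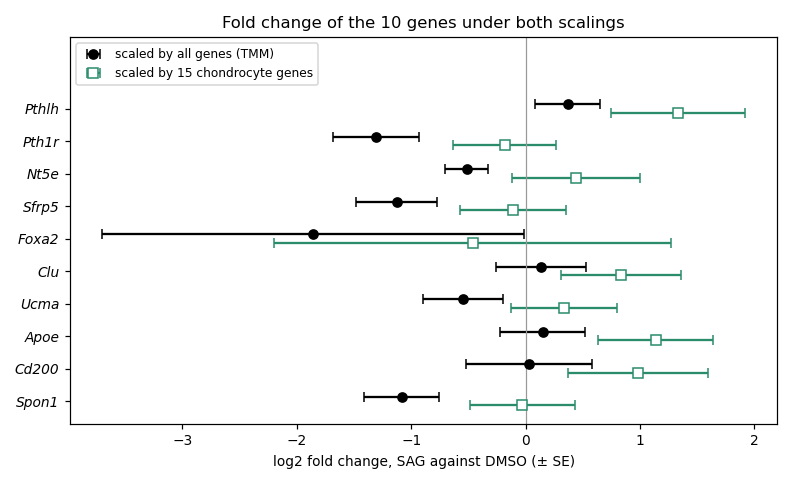
Log2 fold change of SAG against DMSO (x axis, ± SE) for the 10 genes, with filled circles for scaling by all genes and open squares for scaling by the 15 chondrocyte genes. *Pth1r*, *Sfrp5* and *Spon1* lie below -1 under the first scaling and between -0.18 and -0.03 under the second.

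The genes differed widely in abundance. Per kilobase of merged exons, *Apoe* led in both groups, with 826 ± 366 CPM per kb in the DMSO group and 915 ± 390.2 in the SAG group, and *Ucma* followed with 392 ± 94.4 and 268 ± 126. Each stood clear of the next gene in the order. In the controls *Pth1r* (59.2), *Clu* (47.1), *Sfrp5* (34.2), *Spon1* (33.2) and *Nt5e* (26.5 CPM per kb) came next, with ranges that overlapped from each to its neighbor. *Pthlh* followed, apart from *Nt5e*, at 11.4 ± 1.95, then *Cd200* at 3.63 and *Foxa2* at 1.38 CPM per kb, whose ranges overlapped. In the SAG-treated mice *Clu* (51.9) came before *Pth1r* (23.9), and the range of *Pthlh* (14.7 ± 2.96) overlapped with that of its neighbor *Spon1* (15.7 CPM per kb). In the controls the range of the ligand (9.20 to 13.6 CPM per kb) lay below that of its receptor (23.9 to 93.6). In the SAG-treated mice the mean of the ligand was also the lower one, but the ranges overlapped (11.4 to 18.5 against 14.4 to 28.7). Together the 10 genes took between 0.133% and 0.446% of the counts of a library, and *Apoe* supplied 50.9% to 72.2% of them.

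Across the 8 mice, *Pth1r* and *Spon1* had the closest profiles among the 10 genes. Their log2 levels, centred on each gene's mean, differed by a root mean square of 0.18, against 0.35 for both *Ucma* with *Spon1* and *Sfrp5* with *Spon1*. This is a description over 8 mice that share group, depth and cell makeup. Of 11198 genes with a mean of at least 5 CPM, *Kif26b* (0.16) and *Spon1* were among those nearest to *Pth1r*. *Synpo* (0.17), *Spats2l* (0.19) and *Tro* (0.19) were nearest to *Sfrp5*. *Nbr1* (0.12), *Rcor3* (0.13) and *Slc38a2* (0.14) were nearest to *Nt5e*, and *Ncstn* (0.07), *Chmp4b* (0.10) and *2410131K14Rik* (0.11) to *Pthlh*.

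**Figure D4:**
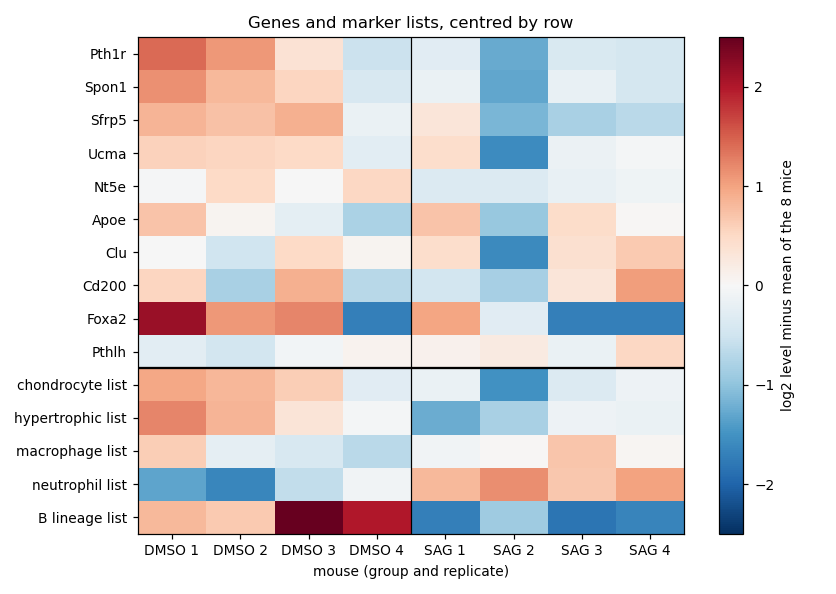
Heat map of log2 levels minus the mean of the 8 mice (color scale from -2.5 to 2.5, saturated beyond) for the 10 genes (upper rows, log2 of CPM plus 0.5) and for the mean of 5 marker lists (lower rows), with 1 column per mouse. *Pth1r*, *Spon1*, *Sfrp5* and *Ucma* are high in DMSO replicates 1 to 3 and low in SAG replicate 2, as are the chondrocyte genes, and the row of *Pthlh* is lowest in DMSO replicate 2 and highest in SAG replicate 4.

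Upstream sequence is shown for 4 of the genes, the ligand, the receptor, the Wnt antagonist and the most abundant gene, because Hh and PTHrP signaling act on transcription through GLI and CREB factors. RefSeq windows (GRCm38.p6) from 250 bases before to 50 bases after a transcript start were held for 8 of the 10 genes, 14 windows in all, and not for *Clu* and *Spon1*. The bases upstream of the annotated gene start are printed 5′ to 3′ on the minus strand, at chr6:147264184-147264263 for *Pthlh*, chr9:110747146-110747395 for *Pth1r*, chr19:42202253-42202502 for *Sfrp5* and chr7:19699189-19699438 for *Apoe*. Capitals mark the GLI core CCACCCA or the short cAMP element TGACG on either strand.
Pthlh: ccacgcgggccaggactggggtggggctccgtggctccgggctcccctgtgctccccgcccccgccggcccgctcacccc
Pth1r: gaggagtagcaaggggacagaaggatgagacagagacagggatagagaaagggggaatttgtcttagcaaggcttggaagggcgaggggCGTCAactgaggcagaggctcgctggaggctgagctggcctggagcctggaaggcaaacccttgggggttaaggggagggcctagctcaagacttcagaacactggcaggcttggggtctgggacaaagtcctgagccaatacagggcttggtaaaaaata
Sfrp5: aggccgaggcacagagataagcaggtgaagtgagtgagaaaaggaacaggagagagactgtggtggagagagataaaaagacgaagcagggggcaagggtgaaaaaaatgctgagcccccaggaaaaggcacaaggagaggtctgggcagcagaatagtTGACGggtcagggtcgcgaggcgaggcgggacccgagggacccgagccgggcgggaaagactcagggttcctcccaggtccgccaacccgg
Apoe: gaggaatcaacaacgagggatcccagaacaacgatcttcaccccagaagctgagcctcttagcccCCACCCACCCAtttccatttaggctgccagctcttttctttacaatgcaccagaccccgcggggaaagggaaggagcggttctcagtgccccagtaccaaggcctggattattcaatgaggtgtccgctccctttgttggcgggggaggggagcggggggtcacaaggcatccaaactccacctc
The GLI core was in 1 of the 14 windows, that of *Apoe*, and in 9.3% of 32851 RefSeq promoter windows, and the longer GLI consensus GACCACCCA, which contains the core, was in 0 of 14 and in 0.253% of all. The short element TGACG was in 4 windows, of *Pth1r*, *Sfrp5*, *Foxa2* and *Cd200* (20.8% of all), and the full element TGACGTCA, which contains it, was in 0 (1.79% of all). These matches are letters in a window and were not tested for binding.

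Genes that carry or answer the signal of PTH1R were examined as a list. Of 40 genes (G proteins, adenylyl cyclases, protein kinase A subunits, phosphodiesterases, arrestins, salt-inducible kinases and their targets), 1 was higher and 0 were lower in edgeR, and the median log2 fold change was 0.10. The called count was 1 of 40, near the 2.62% of all genes called higher. At an unadjusted p under 0.05, 4 were higher and 3 lower, near the 9.58% and 6.5% of all genes. DESeq2 called 3 higher and 1 lower (6.6% and 3.35% of its genes), limma voom 7 and 2 (6.37% and 2.52%), and edgeR without DMSO replicate 4 called 7 and 3 (6.44% and 2.17%). With scaling by the chondrocyte genes 0 were called, against 1 of all 15421 genes. On that scale 19 of the 40 were higher at an unadjusted p under 0.05, against 4075 of the 15421. The median was 1.19, which is 0.21 above that of all genes. The gene that edgeR called was *Arrb2*, which encodes β-arrestin 2, an adaptor that binds phosphorylated receptors, PTH1R among them. It stood at 79.4, 58.7, 102 and 147 CPM in DMSO replicates 1 to 4 and at 269, 414, 255 and 380.1 CPM in SAG replicates 1 to 4, with a log2 fold change of 1.77 (SE 0.29, edgeR, adjusted p = 0.0116). It was called in 7 of 8 fits that left out 1 mouse and missed the threshold without DMSO replicate 3 (adjusted p = 0.0538). Among the controls it was highest in DMSO replicate 4, as were the neutrophil genes, and neutrophils express *Arrb2*; the part of neutrophil RNA in its level was not tested. The genes next in rank did not pass the test. Log2 fold changes were 0.75 for *Prkar2b*, a regulatory subunit of protein kinase A (edgeR, adjusted p = 0.0655), 0.80 for *Grk2*, a receptor kinase (adjusted p = 0.101), and 1.10 for *Slc9a3r1*, the scaffold NHERF1 that binds PTH1R (adjusted p = 0.140). *Mef2c*, a transcription factor of hypertrophy whose activity PTHrP restrains, was at 99.6, 71.7, 100.3 and 126 CPM in the controls and at 41.7, 36.2, 48.9 and 67.9 CPM in the SAG-treated mice. Among the controls *Mef2c* was lowest in DMSO replicate 2 and highest in DMSO replicate 4, as was the summed level of the B lineage genes. The part of other cell types in the level of *Mef2c* was not tested. The groups of *Mef2c* did not overlap, and its log2 fold change of -1.03 (SE 0.25) missed the threshold (edgeR, adjusted p = 0.0508). *Gnas*, which encodes the Gs subunit and was the most abundant gene of the list, was at -0.45 on the same scale (adjusted p = 0.335).

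Of the 12 genes of the Ihh–PTHrP loop (Ihh, its receptors, binding proteins and GLI factors), 1 was lower, 0 were higher, and 11 of the 12 fold changes were below 0 (median -0.68). With scaling by the chondrocyte genes 9 of the 12 were above 0, and the median, 0.37, was 0.61 below that of all genes. Among all genes 0.266% were called lower. At an unadjusted p under 0.05, 4 of the 12 were lower and 0 higher, against 6.5% and 9.58% of all genes. DESeq2 called 3 lower (3.35% of its genes were lower), limma voom 2 (2.52%), and edgeR without DMSO replicate 4 called 4 (2.17%). With the chondrocyte scaling edgeR called 0, where 0 of all genes were lower. The lower gene was *Ihh* itself, the ligand of prehypertrophic chondrocytes, with 50.1, 18.2, 6.97 and 42.6 CPM in the controls and 0.489, 3.35, 2.04 and 3.60 CPM in the SAG-treated mice. No SAG-treated mouse reached the lowest control (log2 fold change -3.63, SE 0.73, edgeR, adjusted p = 0.0238). The call was kept in 3 of 8 fits that left out 1 mouse. It was lost without DMSO replicate 1 or 2 or SAG replicate 2, 3 or 4, with an adjusted p of at most 0.0789. *Gli1* and *Ptch1*, both transcriptional targets of Hh signaling, had log2 fold changes of -1.49 (adjusted p = 0.0569) and -1.21 (adjusted p = 0.0859). *Hhip*, another target and the most abundant gene of the list, was at -0.76 (adjusted p = 0.421). The hypertrophic marker *Col10a1*, the collagen of the zone in which *Ihh* is made, was lower as well (log2 fold change -3.49, edgeR, adjusted p = 0.0368), although DMSO replicate 3, at 14.1 CPM, lay within the range of the SAG-treated mice. That call was kept in 1 of 8 fits that left out 1 mouse, the one without DMSO replicate 3, and the adjusted p reached 0.121. *Col10a1* was the 1 gene of the 6 in the hypertrophic list that edgeR called, and all 6 fold changes were below 0. The others had adjusted p-values from 0.0671 (*Alpl*) to 0.775 (*Ibsp*) in edgeR. DESeq2 called 3 of the 6 lower, limma voom 2, and edgeR with the chondrocyte scaling 0.

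**Figure D5:**
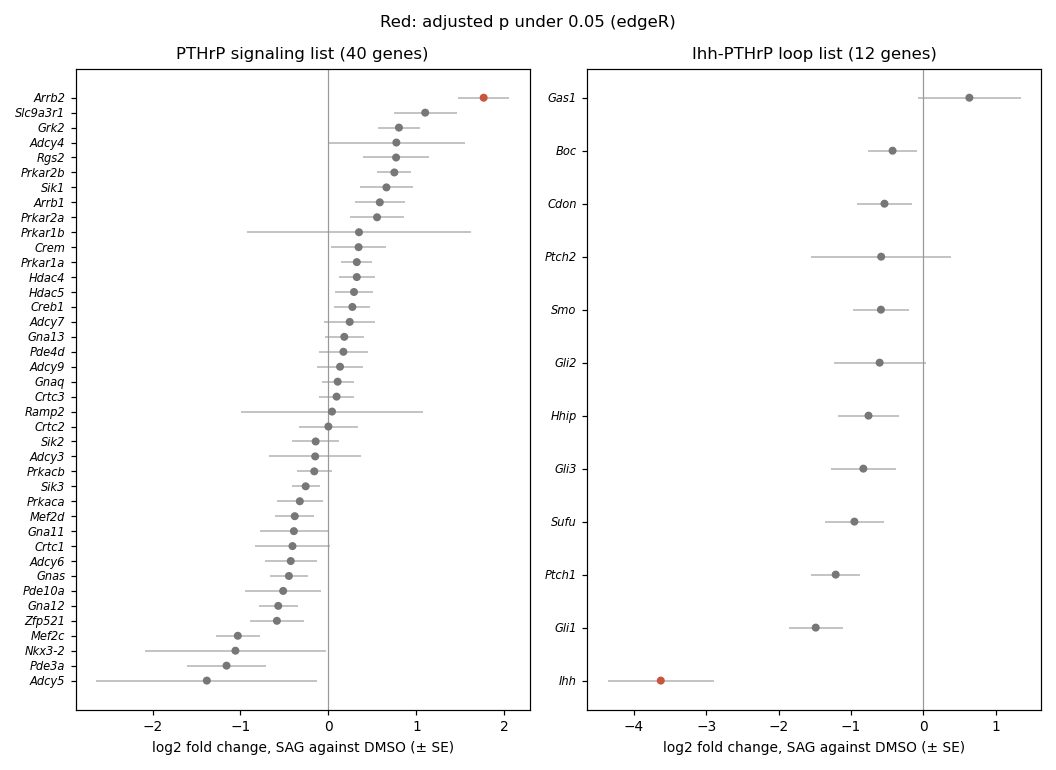
Log2 fold change of SAG against DMSO (x axis, ± SE) for the 40 listed genes of PTHrP signaling (left) and the 12 genes of the Ihh–PTHrP loop (right), ordered by fold change, with red for an adjusted p under 0.05 in edgeR. *Arrb2* at 1.77 and *Ihh* at -3.63 are the genes in red.

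Other genes used to recognize skeletal stem cells did not pass the test in either direction (0 of 7 in edgeR and 0 of 6 in DESeq2, with 1 at an unadjusted p under 0.05). Their median log2 fold change was -0.52, and 0.53 with scaling by the chondrocyte genes, which is 0.45 below that of all genes. The list mixes genes that stem cell gates seek with genes that they exclude, so this median has no single reading. *Grem1*, a BMP antagonist, was at 17.99 ± 18.5 CPM in the DMSO group and 21.0 ± 4.02 CPM in the SAG group (log2 fold change 0.22), with DMSO replicate 3 at 45.5 CPM above every other mouse. *Thy1*, which encodes CD90, a surface protein that stem cell gates exclude, was at 237.5 ± 165 and 167 ± 16.6 CPM (-0.51), and its highest value, 477 CPM, was in DMSO replicate 4. The integrins *Itga5* (-0.66) and *Itgav* (-0.12), *Eng*, which encodes CD105 (-0.78), the Wnt target *Axin2* (-0.69) and the peptidase gene *Enpep* (-0.52) had adjusted p-values between 0.196 and 0.898 in edgeR. *Prg4*, the lubricin gene of articular cartilage, which the CD73 gate was meant to leave out, was detected in every mouse at 114.5 to 4519 CPM with a log2 fold change of 0.10 (edgeR, adjusted p = 0.975). The remaining lists, of articular and perichondrial cells, osteoblasts, marrow stroma, erythroid cells and endothelium, had 0 genes past the threshold in edgeR, 1 at an unadjusted p under 0.05 (an osteoblast gene), and 1 osteoblast gene called by DESeq2. The most abundant marker was *Ibsp* of the hypertrophic list (log2 fold change -0.44), *Col1a1* of osteoblasts (-0.53), *Cxcl12* of marrow stroma (0.97), *Vcam1* of macrophages (-0.05, whereas 7 of the 9 macrophage genes were above 0, with a median of 0.23), *Ebf1* of the B lineage (-1.57), *Hba-a2* of erythroid cells (-0.82) and *Pecam1* of endothelium (-0.18).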

How the data were processed

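Expression was measured by RNA sequencing of sorted mCherry+CD73+ cells, with 1 library for each of 4 DMSO-treated and 4 SAG-treated mice. The authors deposited estimated counts per gene symbol, all whole numbers and not normalized. The submitters' processing notes name kallisto, DESeq2 and GRCm38, and versions and roles are not given in the sources used here. RNA was prepared with a stranded total RNA kit for picogram inputs. Libraries were assigned to groups by the labels, which name no batch, and 0 rows had no sample.

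Counts were compared with edgeR 4.0.16 in R 4.3.3. filterByExpr (minimum count 10) kept 15421 genes, libraries were scaled by TMM, and groups were compared over all genes without covariates by the quasi-likelihood test (robust), and p-values were adjusted by Benjamini-Hochberg with a threshold of 0.05. The SE was derived from the fold change and the F statistic. CPM used the TMM factors, and log2 CPM had a prior count of 2. The receptor to ligand ratio was compared by an exact permutation test over 70 relabellings (scipy 1.17.1). DESeq2 1.42.0, limma 3.58.1 (voom), other scalings, filters, a replicate block and the omission of each mouse served as alternatives. The edgeR fit was also run on simulated counts, and its rate of recovery is not reported here. Totals of 24971992 to 46593090 counts limit the precision of low genes only. The p-values set the difference between the groups against the variation between mice. GENCODE M21 (GRCm38) gave coordinates and lengths for 16524 symbols.

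The 10 genes and all lists were chosen with earlier results of these data known. The text names all 10, the genes of both pathway lists past the threshold or with the 4 smallest p-values in each direction, the stem cell genes, the 3 nearest profiles of 4 genes (1 of them is not reported here), and leading markers of the cell type lists. *Gnas*, *Hhip* and *Col10a1* were named after their values were seen. The mCherry transcript was not analysed here.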

Additional observations from a re-analysis of the deposited data

Results flagged for a closer look

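*Ucma* in DMSO replicate 4 was far from the other 3 controls. It stood at 222 CPM, the next lowest control was at 374 CPM, and this gap was 0.86 of the range of the 4 mice. In the same mouse the summed chondrocyte genes were at their lowest level among the controls, and the part of this in the value of *Ucma* was not tested. Of 22 sets of 4 mice examined in this way 1 stood out, and chance flags about 1 in 20 such sets.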

How the results depend on the processing

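Over all genes, 404 were higher and 41 lower with SAG. These numbers were 812 and 413 with DESeq2, 982 and 388 with limma voom, 1 and 0 with chondrocyte size factors (4075 and 38 at an unadjusted p under 0.05), and 80 to 1017 and 4 to 343 on leaving out 1 mouse, the highest without DMSO replicate 4. A minimum of 10 counts in every sample left 87 lower genes, and *Foxa2* was then not tested. Of the 10 genes, 0 were called in edgeR, 3 with DESeq2 (9 tested, as *Foxa2* had no adjusted p), 3 with limma voom, and 0 to 3 on leaving out 1 mouse. With chondrocyte size factors *Nt5e* turned to 0.44 and *Ucma* to 0.34 on the log2 scale. On leaving out 1 mouse, *Clu* ranged from -0.054 to 0.45 (below 0 without DMSO replicate 2 or SAG replicate 4), *Apoe* from -0.079 to 0.47 (below 0 without DMSO replicate 4 or SAG replicate 1), and *Cd200* from -0.44 to 0.38 (below 0 without DMSO replicate 2 or 4 or SAG replicate 3 or 4). With plain library size *Cd200* was at -0.032. The cause of these turns was not tested. Of the remaining alternative fold changes 136 kept their sign and their side of the threshold and 10 passed it in the same direction. The receptor to ligand difference ranged from -2.01 to -1.23 on leaving out 1 mouse and never passed the test (exact permutation, p between 0.0571 and 0.171), in which 3 mice against 4 cannot go below 0.0571.

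The labels do not state that the replicate numbers pair the mice. Correlations of same-numbered mice were between 0.01 and 0.12, and the best partner carried the same number for numbers 1 and 3 only. With so few mice these values cannot decide whether the mice were paired. With the replicate number as a block, 334 genes were higher and 18 lower, 0 of the 10 genes were called, *Clu* turned to -0.032 and *Cd200* to -0.0044, and the receptor to ligand difference was -1.54 (exact permutation test within blocks, p = 0.125, the smallest that 4 pairs allow). Under the block *Ihh* (adjusted p = 0.0778) and *Col10a1* (0.192) were no longer called and *Arrb2* was (0.0269).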
